A study of Rattus norvegicus with 8 samples.

Results

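The AP-1 and early growth response transcription factors, together with Myc, were followed through the response of rat spinal cord cultures to fibroblast growth factor 9 (FGF9). The set comprised Fos, Fosb, Fosl1, Fosl2, Jun, Junb, Egr1, Egr2, Egr3 and Myc, and each gene was taken from array features annotated with that symbol alone, using the feature with the highest mean where there was more than 1. Of the 10 genes listed, 9 were measured, among 14506 genes in all. Fosb has no feature with that single symbol and was not analysed here. Fosl2 alone had 2 features.

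Cultures in which axons become myelinated were prepared from the spinal cords of Sprague-Dawley rat embryos at embryonic day 15.5, and total RNA was hybridised to 8 Affymetrix Rat Gene 1.0 ST arrays. The 4 groups, of 2 arrays each, were cultures given human FGF9 at 100 ng/ml and sampled at 24 h, their untreated controls at 24 h, cultures given FGF9 and sampled at 10 days, and their untreated controls at 10 days. The source field of the labels names neurosphere-derived astrocytes, while titles and cell type labels name myelinating cultures. Summed markers of neurons (8 genes), of myelin and oligodendrocytes (7 genes) and of astrocytes (7 genes) stood at 13.8 to 15.4, 12.6 to 15.0 and 13.4 to 15.2 log2 units across the arrays, whose medians over all features were 6.62 to 6.73. Whether replicates are separate cultures is not in the labels, and p-values here reflect only how far these arrays scatter, which may be technical.

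Within a time point, an FGF9 array and the control array that carries its replicate number also have the same first letters in the array name, and they are treated here as a pair. Pair 1 at 24 h begins with CL1 and pair 2 at 10 days with AA1, while CL2 begins the names of both pair 2 at 24 h and pair 1 at 10 days. The labels do not state what this prefix marks. Across all features the AA1 arrays correlated with the 6 others at 0.897 to 0.939, while the others correlated among themselves at 0.962 to 0.989, so the AA1 pair stood apart. Values with the pair as a block, and without the AA1 pair, are therefore given where they alter a call. Leaving out a pair leaves 1 array per group at that time, so p-values and counts for it then rest on the spread at the other time.

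FGF receptors signal through RAS and the ERK kinases, which enter the nucleus and phosphorylate the ternary complex factors bound with serum response factor at the promoters of Fos and the Egr genes. These immediate early genes are switched on within minutes without new protein synthesis and usually fall again quickly. FOS proteins pair with JUN proteins to form AP-1, the FOS relative encoded by Fosl1 (FRA-1) appears later and is stabilised by continued ERK activity, the zinc finger proteins of the Egr family bind GC-rich sites, and MYC drives growth and ribosome production. Egr2 (KROX-20) is also the regulator that commits Schwann cells to peripheral myelin, whereas central myelin is made by oligodendrocytes without that requirement.

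After 24 h and after 10 days of FGF9, the transcripts of the FOS, JUN and MYC factors were mostly higher than in paired controls, while the Egr factors had no shared direction at both times. Fos, Fosl1, Jun, Junb and Myc were higher in all 4 pairs, which held for 5 of 9 measured members and for 14.2% of all genes. Fosl1 showed the largest mean difference among the members at both times. The Egr genes had mean differences of 0.13 to 0.47 log2 units at 24 h and of -0.31 to 0.04 at 10 days, and none of the 3 was higher in all 4 pairs. No member passed the test in limma over all genes at an adjusted p of 0.05 without the block (0% of all genes at either time). With the pairs as a block, Fosl1 and Junb rose at 10 days, where 6.43% of all genes passed, and no member passed at 24 h (0% of all genes). The calls of Fosl1 and Junb did not hold without the AA1 pair. That leaves 1 array per group at 10 days, with differences of 1.10 for Fosl1 and 0.63 for Junb.

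**Figure D1:**
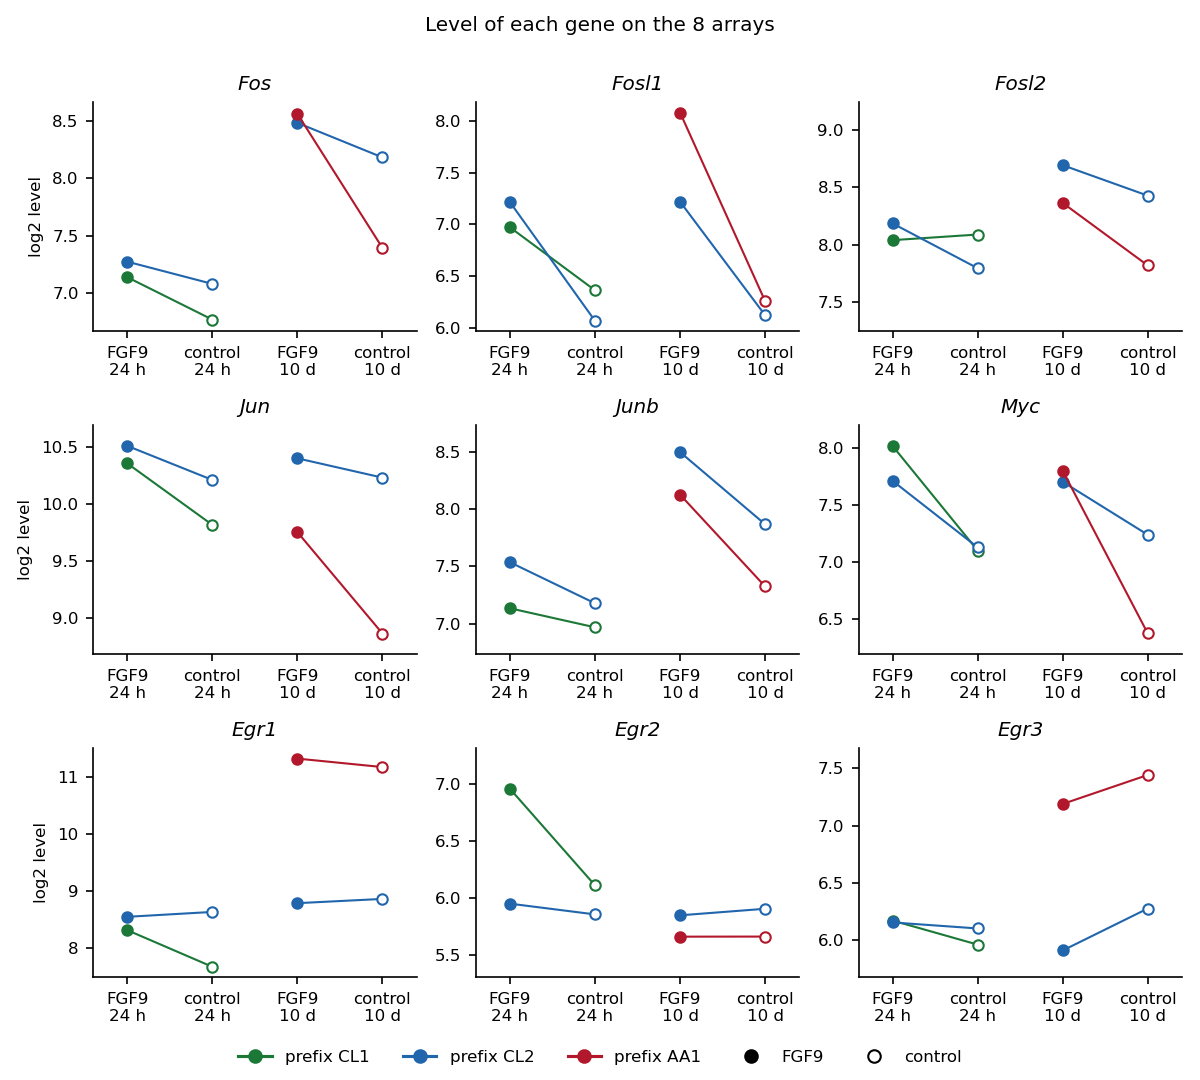
Level of each of the 9 measured genes (log2 scale, vertical axes of separate range) on the 8 arrays, with filled circles for FGF9, open circles for control, lines joining the arrays of a pair and colours for the array name prefix. Fosl1 lies above its paired control by 0.61 to 1.83 in the 4 pairs, while Egr1 lies at 11.17 to 11.32 on both AA1 arrays and at 7.66 to 8.85 on the 6 others.

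The promoter windows of Fosl1 and Junb, the genes that rose with the block, are shown beside that of Egr2, an immediate early gene that did not pass. RefSeq windows on GRCr8, from 250 bases before to 50 bases after a start site, were given for 6 of the 10 listed genes (Fosb, Fosl1, Fosl2, Junb, Egr1 and Egr2). The Fosl1 window is chr1:212183635-212183934 on the plus strand, the Junb window chr19:40080876-40081175 on the plus strand and the Egr2 window chr20:21054392-21054691 on the minus strand. The start site used is the 5′ end of the annotated gene for Fosl1, Fosl2, Junb and Egr1, but lies 760 bases inside the annotated span for Egr2 and 322 bases inside it for Fosb. Capitals mark the CArG box, the element bound by serum response factor.
Fosl1: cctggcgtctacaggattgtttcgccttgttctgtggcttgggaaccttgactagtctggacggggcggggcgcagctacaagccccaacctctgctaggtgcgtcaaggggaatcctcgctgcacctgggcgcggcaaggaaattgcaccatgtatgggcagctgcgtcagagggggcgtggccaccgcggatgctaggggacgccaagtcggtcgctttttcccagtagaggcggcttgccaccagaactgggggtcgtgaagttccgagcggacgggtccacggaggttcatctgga
Junb: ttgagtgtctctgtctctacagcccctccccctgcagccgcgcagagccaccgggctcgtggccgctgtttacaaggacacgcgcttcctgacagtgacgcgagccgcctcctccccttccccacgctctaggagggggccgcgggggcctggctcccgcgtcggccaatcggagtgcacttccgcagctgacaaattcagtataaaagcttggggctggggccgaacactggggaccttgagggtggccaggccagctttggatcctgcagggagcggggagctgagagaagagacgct
Egr2: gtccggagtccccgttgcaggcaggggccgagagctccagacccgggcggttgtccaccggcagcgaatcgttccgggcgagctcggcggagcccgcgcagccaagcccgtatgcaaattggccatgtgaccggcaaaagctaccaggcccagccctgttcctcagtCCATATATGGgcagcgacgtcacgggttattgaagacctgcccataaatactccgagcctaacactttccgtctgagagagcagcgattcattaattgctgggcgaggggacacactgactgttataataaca
Both strands of the windows were searched for 5 motifs. The CArG box was found once for Egr2, from base -83 to base -74 counted from the start site of its window, and at 2 places that do not overlap for Egr1. It was found in 1.64% of 33469 windows of the same length. The other 4 windows held no CArG box, read here as CC, then 6 letters that are each A or T, then GG. Near matches were not searched for. The Fosl1 window holds ccatgtatgg, which departs from these letters at 1 base and is left unmarked. None of the 6 windows held the AP-1 motif TGAGTCA or its reverse complement TGACTCA (4.63% of all windows), the cyclic AMP response element TGACGTCA (1.83%), the EGR motif GCGTGGGCG (0.544%) or the E-box CACGTG (6.42%). These matches describe letters in short windows and were not set against binding.

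Among the FOS family, Fosl1, which encodes FRA-1, stood at 6.97 and 7.22 log2 units in the FGF9 cultures at 24 h (pairs 1 and 2), against 6.36 and 6.07 in their controls. At 10 days it stood at 7.22 and 8.08 with FGF9, against 6.12 and 6.26 in controls. Every FGF9 array was above every control array at both times. The level in controls was similar at both times, and the highest value of all came from the FGF9 array of the AA1 pair. The log2 difference was 0.88 ± 0.31 at 24 h (SE of the limma fit, n = 2 per group; adjusted p = 1) and 1.46 ± 0.31 at 10 days (adjusted p = 0.525), where it was 2.76-fold. With the pairs as a block the SE was 0.23, and Fosl1 rose at 10 days (adjusted p = 0.0273) but did not pass at 24 h (adjusted p = 0.236). Without the AA1 pair the difference at 10 days in that fit was 1.10 and no longer passed (adjusted p = 0.0633).

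Fos, the founding member and classical immediate early gene, stood at 7.14 and 7.27 with FGF9 at 24 h, against 6.77 and 7.08 in controls. Its 10-day levels were 8.49 and 8.56 with FGF9, against 8.18 and 7.39 in controls. FGF9 arrays lay above control arrays at each time without overlap, and all 10-day arrays lay above all 24 h arrays. The differences were 0.28 ± 0.29 at 24 h and 0.74 ± 0.29 at 10 days, and neither passed (adjusted p = 0.113 at 10 days with the block). Within the pairs at 10 days the differences were 0.30 and 1.17. The larger came from AA1, which alone sets the estimate (1.17) when the CL2 pair at 10 days is left out.

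Fosl2, which encodes FRA-2, stood at 8.04 and 8.19 with FGF9 at 24 h, against 8.09 and 7.79 in controls. Its 10-day levels were 8.69 and 8.36 with FGF9, against 8.43 and 7.82 in controls. The groups overlapped at both times, and pair 1 at 24 h was the single pair in which Fosl2 was not higher. The differences of 0.17 ± 0.27 and 0.41 ± 0.27 did not pass (adjusted p = 0.213 at 10 days with the block, 95% interval -0.004 to 0.82). Its second feature gave -0.01, 0.39, 0.22 and 0.55 in the 4 pairs, close to the -0.05, 0.39, 0.27 and 0.55 of the first.

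Of the JUN partners, Junb, an AP-1 subunit that often restrains growth, stood at 7.13 and 7.54 with FGF9 at 24 h, against 6.97 and 7.18 in controls. At 10 days it stood at 8.50 and 8.13 with FGF9, against 7.87 and 7.32 in controls. The groups overlapped at 24 h and were apart at 10 days. The differences were 0.26 ± 0.28 at 24 h and 0.72 ± 0.28 at 10 days (adjusted p = 0.854), a 1.64-fold difference at 10 days. With the block the SE was 0.14 and Junb rose at 10 days (adjusted p = 0.0421). That call ended with the prefix as a random block (adjusted p = 0.0796), without either 24 h pair (adjusted p = 0.0877) and without the AA1 pair (adjusted p = 0.121).

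Jun, the main partner of the FOS proteins, stood at 10.35 and 10.51 with FGF9 at 24 h, against 9.82 and 10.21 in controls. Its 10-day levels were 10.40 and 9.75 with FGF9, against 10.23 and 8.87 in controls. It was higher with FGF9 in every pair, but the groups overlapped at 10 days, where both AA1 arrays were low. The differences of 0.42 ± 0.47 and 0.53 ± 0.47 did not pass (adjusted p = 0.185 at 10 days with the block). Without the CL2 pair at 10 days the difference in the fit with the block was 0.89, from the AA1 pair alone. Without control replicate 2 at 10 days, which unbalances the pairs, the difference at 10 days turned to -0.15.

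Myc, the growth regulator, stood at 8.01 and 7.71 with FGF9 at 24 h, against 7.10 and 7.13 in controls. At 10 days it stood at 7.70 and 7.80 with FGF9, against 7.24 and 6.38 in controls. All 4 FGF9 arrays lay above all 4 controls, and the lowest level was that of the AA1 control. The differences were 0.75 ± 0.30 at 24 h and 0.94 ± 0.30 at 10 days. With the block Myc did not pass at 24 h (adjusted p = 0.325) or at 10 days (adjusted p = 0.0802). Without the CL2 pair at 10 days the difference there was 1.42, from the AA1 pair alone. Fos, Fosl1 and Myc were the 3 members with both FGF9 arrays above both control arrays at each time, which held for 4.1% of all genes.

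Of the early growth response genes, Egr1 (ZIF268), induced by growth factors and by neuronal activity, stood at 8.31 and 8.54 with FGF9 at 24 h, against 7.66 and 8.63 in controls. At 10 days it stood at 8.78 and 11.32 with FGF9, against 8.85 and 11.17 in controls. The groups overlapped at both times, and the AA1 arrays were far above the rest whether or not FGF9 had been given. The differences were 0.28 ± 1.03 at 24 h and 0.04 ± 1.03 at 10 days. With the block the 95% intervals were -0.22 to 0.78 and -0.46 to 0.53.

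Egr2 stood at 6.96 and 5.95 with FGF9 at 24 h, against 6.11 and 5.86 in controls. Its 10-day levels were 5.85 and 5.66 with FGF9, against 5.91 and 5.66 in controls. The single high value was the FGF9 array of the CL1 pair, with a difference of 0.84 there and of 0.09 in the CL2 pair at 24 h. The mean differences of 0.47 ± 0.34 and -0.03 ± 0.34 did not pass (adjusted p = 0.42 at 24 h with the block). The 8 measured Schwann cell markers summed to 10.94 on that FGF9 array and 11.13 on its control, against 10.29 and 9.62 in pair 2. Within the sums of pair 1, Erbb3 alone stood at 9.68 and 9.79. Of the 8 markers 2 were higher and 4 lower in both pairs at 24 h, and Dhh rose at 10 days with the block (2.74). The part of these markers in the Egr2 value was not tested.

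Egr3, needed for the development of muscle spindles, stood at 6.17 and 6.15 with FGF9 at 24 h, against 5.96 and 6.10 in controls. At 10 days it stood at 5.91 and 7.19 with FGF9, against 6.28 and 7.44 in controls. It was slightly higher in both pairs at 24 h, lower in both at 10 days, and again high on the AA1 arrays. The differences were 0.13 ± 0.52 and -0.31 ± 0.52. With the block neither passed (adjusted p = 0.748 and 0.235), nor did the change between the times (-0.44, adjusted p = 0.409).

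**Figure D2:**
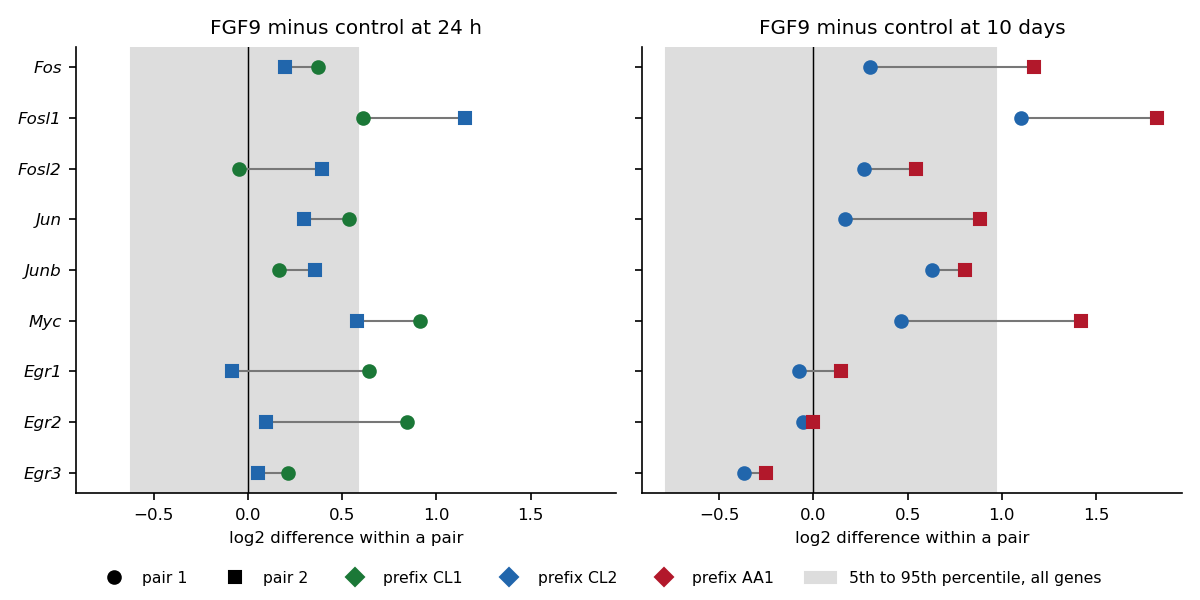
FGF9 minus control within each pair (log2 difference, horizontal axis) for the 9 genes at 24 h and at 10 days, with circles for pair 1, squares for pair 2, colours for the array name prefix and a grey band from the lower of the pairs' 5th percentiles to the higher of their 95th percentiles over all genes. Both 10-day differences of Fosl1 (1.10 and 1.83) lie beyond the band, as do both of its 24 h differences (0.61 and 1.15), while the 10-day differences of the Egr genes lie between -0.37 and 0.15.

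Over all genes, limma found 0 of 14506 (0%) different at 24 h, with 280 at an unadjusted p under 0.05, and 0 (0%) at 10 days, with 816. With the block 0 (0%) passed at 24 h and 933 (6.43%) at 10 days, of which 453 (3.12%) were higher. Of the 9 members 0 passed in either direction at 24 h, and 2 were higher and 0 lower at 10 days. At an unadjusted p under 0.05 with the block, Fosl1 and Myc were higher at 24 h, against 5.88% of all genes. At 10 days Fos, Fosl1, Jun, Junb and Myc were, against 12.7%. The members' median difference was 0.28 at 24 h and 0.53 at 10 days, beside 0.00 and 0.02 over all genes. By pair the members' medians were 0.54 and 0.30 at 24 h, and 0.27 (CL2) and 0.80 (AA1) at 10 days.

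Higher values in both pairs were seen for 7 members at 24 h (31.8% of all genes) and for 6 at 10 days (33.2%). Both FGF9 arrays lay above both controls for 5 members at 24 h (17.5%) and for 4 at 10 days (14.9%). At 24 h these were Fos, Fosl1, Jun, Egr3 and Myc, and at 10 days Fos, Fosl1, Junb and Myc.

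The difference between the effects at the 2 times asks whether the response grew or faded. None of the 9 members passed (0 of 14506 genes, 0%, with 276 at an unadjusted p under 0.05; with the block 7 genes, 0.0483%, and no member). The change was largest for Fosl1 (0.58 ± 0.44), followed by Fos and Junb (0.45 ± 0.41 and 0.45 ± 0.39), and was 0.19 ± 0.43 for Myc and 0.11 ± 0.67 for Jun. With the block the 95% interval for Fosl1 was -0.20 to 1.37 and for Myc -0.65 to 1.04. Egr1 (-0.24), Egr2 (-0.50) and Egr3 (-0.44) had negative estimates.

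In control cultures, 10 days were set against 24 h to see how the levels moved without FGF9. Fos was higher at 10 days by 0.87 ± 0.29 and Junb by 0.52 ± 0.28, and neither passed (0 of 14506 genes, 0%, with 415 at an unadjusted p under 0.05; with the block 1 gene, 0.00689%, and no member). Within the CL2 arrays, the one prefix present at both times, the 10-day array exceeded the 24 h array by 1.21 in FGF9 cultures and 1.11 in controls for Fos. For Junb these values were 0.96 and 0.69, and for Fosl2 0.51 and 0.63. Fosl1 (0.00 and 0.05) and Myc (-0.01 and 0.11) were nearly level on the same arrays. The estimate of 1.87 ± 1.03 for Egr1 in controls was 0.36 ± 0.25 with the block (SE), and AA1 arrays were present at 10 days alone.

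For Egr1, Egr2, Egr3, Jun and Fosl2 the pairs at 10 days lay further apart than the FGF9 and control cultures did. As the mean of its FGF9 and control arrays, pair 2 (AA1) exceeded pair 1 (CL2) by 2.43 log2 units for Egr1, the 47th largest such value of 14506 genes, and by 1.22 for Egr3. Jun was lower on both AA1 arrays than on both CL2 arrays at 10 days, and the other members lay between -0.47 and 0.50. Nr4a2, another immediate early gene named after its values were seen, was higher in AA1 by 2.41, while Ccn2, a matrix-associated target of SRF and YAP, and Ier3 differed by -2.17 and -1.94. Neuron markers summed to 14.63 and 15.38 on the FGF9 and control arrays of AA1, against 13.82 and 14.59 on those of CL2. In pair 2 at 24 h they summed to 14.71 and 15.02, where Egr1 stood at 8.54 and 8.63 and Egr3 at 6.15 and 6.10. Fibroblast and pericyte markers (6 of 6 measured) summed to 9.28 and 9.61 in AA1, against 12.85 and 13.49 in CL2. Their part in the levels of Egr1, Egr3 and Jun was not tested.

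**Figure D3:**
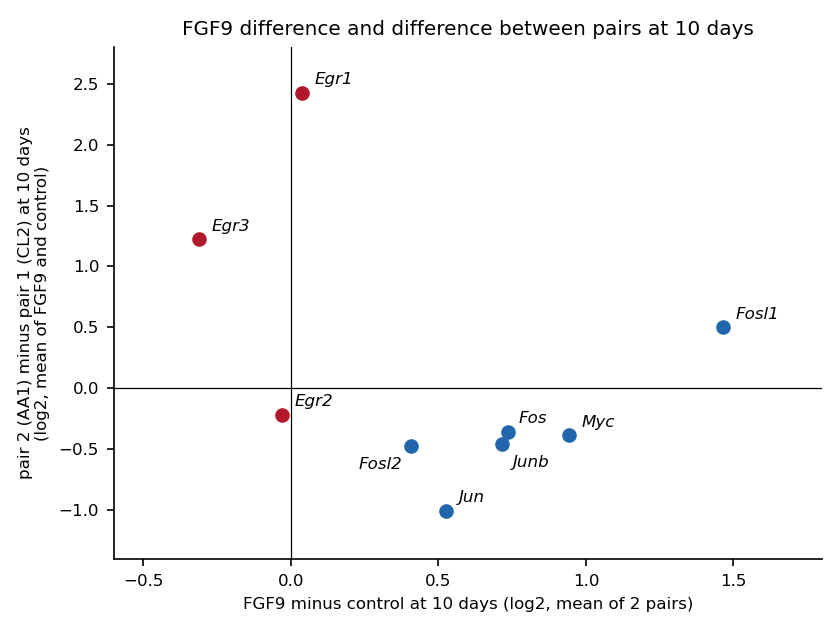
Mean FGF9 minus control difference at 10 days (horizontal axis, log2) against the difference of pair 2 (prefix AA1) from pair 1 (prefix CL2) at 10 days, averaged over FGF9 and control (vertical axis, log2), with Egr genes in red and the others in blue. Egr1 lies at 0.04 and 2.43 and Fosl1 at 1.46 and 0.50.

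Upstream, the transcripts of the ERK cascade itself (10 of 16 listed genes measured) had a median difference of 0.07 at 24 h and -0.26 at 10 days. By pair the 10-day medians were -0.045 (CL2) and -0.225 (AA1). At 10 days 2 genes, Shc1 and Nras, were higher and 7 lower in both pairs, and none passed with or without the block. The guanine nucleotide exchange factor Sos1 differed by -0.62 at 10 days (adjusted p = 0.0546 with the block). Of 4 measured serum response factor and ternary complex genes, 1 rose with the block at 10 days. This was Elk3, an ETS repressor that ERK turns into an activator, with 0.81 ± 0.48 at 10 days (block SE 0.14, adjusted p = 0.0322) and 0.80 ± 0.48 at 24 h (adjusted p = 0.142). The 10-day call of Elk3 ended when any 1 pair was left out (adjusted p = 0.0513 to 0.0739) and with the random block (adjusted p = 0.181). The ERK feedback genes, a list of inhibitors and ETS factors switched on by FGF signalling, were higher in both pairs for 11 of 11 measured genes at 24 h and again at 10 days. Of these 0 passed at 24 h and 10 rose at 10 days with the block, among them Etv4 (2.50 ± 0.19; 0.43 at 24 h), Etv5 (2.29 ± 0.43), Spry4 (1.79 ± 0.43; 1.24 at 24 h) and Spred1 (1.23 ± 0.30). Dusp5, an ERK phosphatase, also rose at 10 days with the block (0.84 ± 0.27; 1.33 at 24 h). With the random block 7 of the 11 rose, and Dusp5 did not (adjusted p = 0.0663). Of the 11 genes, 6 rose without the AA1 pair, including Etv4, Etv5, Spry4 and Spred1 but not Dusp5 (adjusted p = 0.058).

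Of 24 other immediate early genes measured (25 listed), 6 were higher and 4 lower in both pairs at 24 h, and 10 were higher and 1 lower at 10 days. Higher values in both pairs were found for 31.8% of all genes at 24 h and 33.2% at 10 days, and lower values for 32.9% and 30%. These shares apply to every list here. The median of the 24 genes was 0.01 at 24 h and 0.26 at 10 days, and 1 gene passed, with the block. It was Ier2, a nuclear protein of the growth factor response, which stood 1.18 ± 0.31 higher at 10 days and 0.43 ± 0.31 at 24 h. At 10 days its adjusted p was 0.0258 with the block, and the call ended with the random block (adjusted p = 0.054). Without the AA1 pair the 10-day difference of Ier2 was 0.89. Npas4 and Arc, which neuronal activity induces, differed by -0.06 ± 0.31 and -0.16 ± 0.49 at 24 h and by 0.07 ± 0.31 and -0.23 ± 0.49 at 10 days, with opposite signs in the pairs, and did not pass.

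Partners of AP-1 went both ways. Of 11 measured, 3 were higher and 7 lower in both pairs at 24 h (31.8% and 32.9% of all genes). At 10 days 3 were higher and 5 lower (33.2% and 30% of all genes). Jund, the constitutive JUN protein, differed by -0.65 ± 0.21 at 24 h (adjusted p = 0.236 with the block). Jdp2, a repressor that pairs with JUN, differed by -0.47 ± 0.41 at 24 h and fell at 10 days with the block (-0.65 ± 0.41; adjusted p = 0.0444), and Atf7, a CREB-related factor, rose at 10 days with the block (0.72 ± 0.34; adjusted p = 0.0495). Both calls ended without the AA1 pair (adjusted p = 0.0987 for Jdp2 and 0.156 for Atf7), without a 24 h pair (0.105 and 0.0972) and with the random block (0.202 and 0.123), and that of Jdp2 also without the CL2 pair at 10 days (0.076). Nab2, the corepressor of EGR proteins that EGR proteins induce, differed by 0.58 ± 0.21 at 24 h and 0.52 ± 0.21 at 10 days and did not pass (adjusted p = 0.234 and 0.0913 with the block). In the MYC network, 3 of 8 measured genes were higher and 5 lower in both pairs at 24 h, where Mxi1, a MYC antagonist, differed by -0.70 ± 0.24 and the MYC relative Mycn by -0.63 ± 0.23. Neither passed (adjusted p = 0.321 and 0.277 with the block). Mxd1, of the same network, differed by -0.58 ± 0.59 at 24 h and by 0.38 ± 0.59 at 10 days. It did not pass at either time (adjusted p = 0.22 and 0.16 with the block). At 10 days 3 genes of the network were higher and 2 lower in both pairs, with a median of 0.02.

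Genes known as AP-1 targets had a median difference of 0.93 at 24 h and 0.86 at 10 days over 14 measured (15 listed). By pair these medians were 0.34 (CL1) and 1.22 (CL2) at 24 h, and 0.95 (CL2) and 0.71 (AA1) at 10 days. At 24 h 11 were higher and 1 lower in both pairs, and at 10 days 9 were higher and 0 lower. With the block 0 passed at 24 h and 5 rose at 10 days. These were Ccnd1, cyclin D1 (2.89 ± 0.38 at 10 days; 2.13 ± 0.38 at 24 h), Cd44, the hyaluronan receptor (2.38 ± 0.76; 1.33 ± 0.76), Timp1, a metalloprotease inhibitor (2.24 ± 0.41; 1.04 ± 0.41), Vegfa, the endothelial growth factor (1.38 ± 0.47 at 10 days), and Hmga1, a chromatin protein (0.94 ± 0.30; 1.38 ± 0.30). The same 5 rose without the AA1 pair, and with the random block Ccnd1 and Timp1 did. Each of these genes has other regulators as well, and binding was not measured.

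The MYC target list of 21 genes for ribosome production and growth was higher in both pairs for 21 of 21 at 24 h, with a median of 0.40, while none passed. At 10 days 10 were higher and 2 lower in both pairs, with a median of 0.22, and 1 rose with the block. By pair the medians were 0.41 and 0.42 at 24 h, and 0.04 (CL2) and 0.34 (AA1) at 10 days. Fbl, the nucleolar methyltransferase fibrillarin, differed by 1.02 ± 0.32 at 24 h and 0.29 ± 0.32 at 10 days, and Mrto4, a ribosome assembly factor, by 0.72 ± 0.18 at 24 h. Srm, spermidine synthase, rose at 10 days with the block (0.88 ± 0.33, adjusted p = 0.0446) and differed by 0.72 ± 0.33 at 24 h. That call ended with the random block (adjusted p = 0.084) and with the block and quantile normalization (adjusted p = 0.0506). It also ended without either 24 h pair and without the AA1 pair, where the 10-day difference was 0.65. The mean of its features, without the block, gave 0.63 at 10 days. No gene of the list passed the test of the difference between the times.

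**Figure D4:**
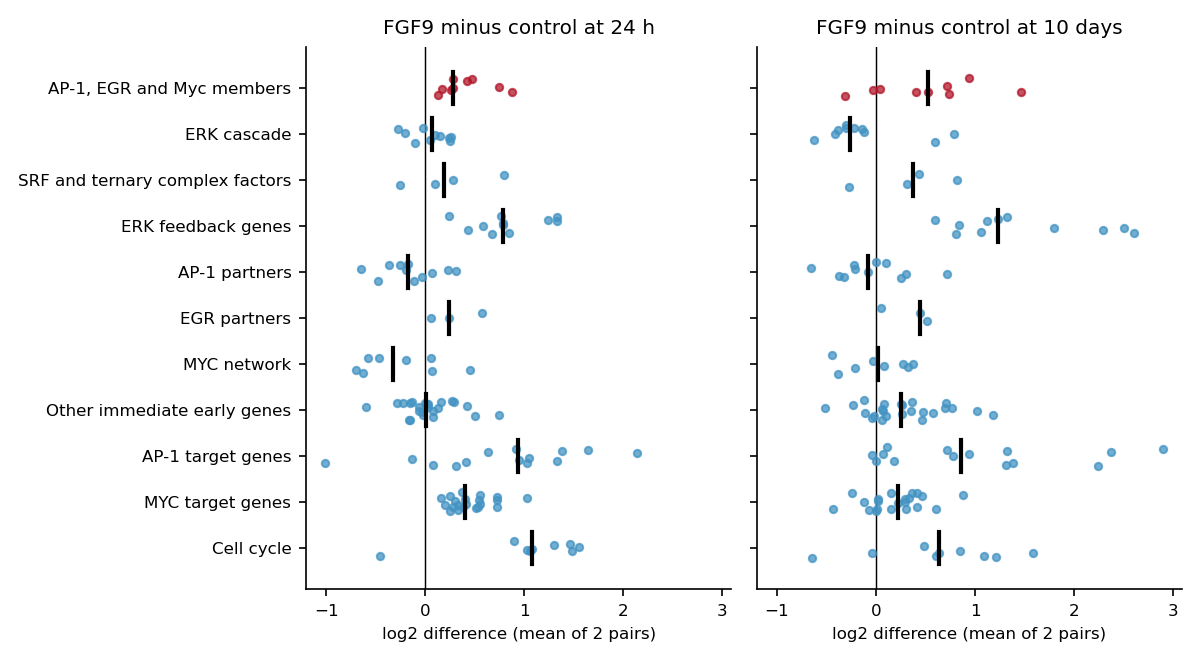
FGF9 minus control (log2, mean of both pairs) for each gene of the 9 measured members (red) and of 10 pathway lists (blue), at 24 h on the left and at 10 days on the right, with black bars at the medians. The ERK feedback list has a median of 0.78 at 24 h and 1.24 at 10 days, and the MYC target list 0.40 and 0.22.

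Markers of cell types and of division were set beside these values, and none of them passed at 24 h. Neuron markers were lower in both pairs for 8 of 8 genes at both times, with medians of -0.27 and -0.78. By pair the 10-day medians were -0.84 (CL2) and -0.73 (AA1). With the block 5 fell at 10 days, and with the random block 0 did. Myelin and oligodendrocyte markers were lower in both pairs for 7 of 7 at 24 h (median -0.54). At 10 days 4 were higher and 3 lower (median 0.26, by pair 0.005 in CL2 and 0.001 in AA1). Of these Ugt8 rose at 10 days with the block. That call ended with the random block and also with the block and quantile normalization. Astrocyte markers were lower in both pairs for 6 of 7 at 24 h (median -0.81) and at 10 days 2 were higher and 2 lower (median -0.11), and none passed in either fit. Of 9 measured cell cycle genes (10 listed), 8 were higher and 1 lower in both pairs at 24 h, with a median of 1.08, Bub1 at 1.48 ± 0.55 and Pcna at 0.89 ± 0.49. At 10 days 6 were higher and 2 lower, with a median of 0.15 in CL2 and 1.33 in AA1 and Rrm2 at 1.59 ± 0.87. Aurkb, a mitotic kinase named after its values were seen, was lower in all 4 pairs (-0.45 ± 0.50 at 24 h and -0.65 ± 0.50 at 10 days), and no cell cycle gene passed in either fit. Their part in the levels of the AP-1 factors and Myc was not tested, and in these bulk samples more cells of a type and more RNA per cell cannot be told apart.

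Genes whose levels followed those of Fosl1, Egr1 and Myc most closely were found by Pearson correlation over the 8 arrays, which share prefixes and treatment, as a description. For Fosl1 these were Upp1, uridine phosphorylase (r = 0.997; 0.79 ± 0.30 at 24 h and 1.38 ± 0.30 at 10 days), Gfpt2, of the hexosamine pathway (r = 0.971; 0.84 ± 0.34 and 1.47 ± 0.34), and the ERK inhibitor Spry1 (r = 0.963; 0.68 ± 0.30 and 1.12 ± 0.30). All 3 rose at 10 days with the block, and without the AA1 pair Gfpt2 alone did (adjusted p = 0.0699 for Upp1 and 0.055 for Spry1). For Myc they were the mitotic inhibitor kinase Wee1 (r = 0.972; 1.05 ± 0.25 and 1.08 ± 0.25), the mechanosensitive channel Piezo1 (r = 0.965; 1.12 ± 0.33 and 1.13 ± 0.33) and the tetraspanin Cd63 (r = 0.957; 0.61 ± 0.33 and 0.81 ± 0.33). Of these Wee1 rose at 10 days with the block (adjusted p = 0.0399), a call that ended with the random block (adjusted p = 0.06). Without the AA1 pair the 10-day difference of Wee1 was 0.73. For Egr1 they were Tfb1m (r = 0.998), Uck1 (r = 0.993) and Polr2j (r = 0.993).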

How the data were processed

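The authors deposited 1 log2 value per feature and array, a scale read here from the values. Partek 6.5 and GCRMA are named in the submitters' processing notes, without order or settings. Groups and replicate numbers come from the titles. Of 29214 features, 15310 had 1 symbol, and the feature with the highest mean was kept for each of 14506 genes. All 8 arrays entered a limma fit (version 3.58.1, under R 4.3.3) with a mean for each group, moderated by eBayes and tested on simulated data first. P-values were adjusted by Benjamini-Hochberg over all genes, with a threshold of 0.05. The alternative with the pair as a block rests on the shared name prefix: deviations from group means of paired arrays correlated at 0.757 at 24 h and 0.819 at 10 days, and the block lowered the median residual SD to 0.145, against 0.3 without it. The members and lists were chosen with earlier results of these data known. Genes were named from all members, from each pathway list up to 4 genes by the smallest p at 10 days with the block and up to 2 at 24 h, and from the 3 genes most correlated with Fosl1, Egr1 and Myc. Nr4a2, Ccn2, Ier3, Npas4, Arc, Aurkb, Erbb3 and Dhh were named after their values were seen. The number of arrays limits the precision. Lists were not tested as sets. Alternatives were a random block, leaving out arrays or pairs, normalization, a filter on low values and the mean of a gene's features. The array annotation names no genome build, so coordinates are those of the RefSeq windows.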

Additional observations from a re-analysis of the deposited data

How the results depend on the processing

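Without the block the counts of genes that passed were 0 in all 4 comparisons. With the replicate block they were 0 for FGF9 at 24 h, 933 for FGF9 at 10 days, 7 for the difference between the times and 1 for 10 days against 24 h in controls. With the prefix as a random block they were 0, 151, 4 and 0. With the block and quantile normalization, chosen after seeing the data, they were 0, 957, 8 and 1, and Fosl1 and Junb passed at 10 days. Array medians subtracted without the block gave 6 genes at 10 days and 0 elsewhere. Quantile normalization without the block, the filter on low values and the mean of all features gave 0 in each comparison; the filter dropped Fosl1, Egr2 and Egr3, which rarely or never exceeded the array median. Leaving out 1 array, or 1 pair with the block, gave 0 to 237 at 24 h, 0 to 1506 at 10 days, 0 to 322 for the difference and 0 to 2 in controls. With the block, the 24 h pair of either prefix left out gave 469 at 10 days, the CL2 pair at 10 days left out 1506 and the AA1 pair left out 569, with 1, 5 and 0 members among them. Signs of Fos, Fosl1, Junb and Myc held in every alternative at both times. For FGF9 against control and for the difference between the times, signs of members turned only when an array or a pair was left out. For FGF9 against control this also held for the named genes carried through the alternatives. Other named genes, among them Npas4, Arc, Aurkb, Nr4a2, Ccn2 and Ier3, were not carried through. In controls, the difference of Egr2 at 10 days against 24 h was 0.22 with the replicate block and -0.20 without it. The leave-out ranges at 24 h were -0.05 to 0.39 for Fosl2, -0.20 to 0.76 for Egr1 and -0.03 to 0.97 for Egr2. At 10 days they were -0.15 to 1.21 for Jun, -1.23 to 1.31 for Egr1, -0.15 to 0.09 for Egr2, -0.95 to 0.33 for Egr3 and -0.15 to 0.73 for Fbl. For the difference between the times they were -0.07 to 0.54 for Fosl2, -0.57 to 0.79 for Jun, -1.51 to 1.03 for Egr1, -1.08 to 0.20 for Egr3 and -0.28 to 0.67 for Myc. Leaving out 1 array unbalances the pairs. When a pair is left out, p-values and counts for its time point rest on the spread at the other time. In controls no value could be had with the block when a CL2 pair was left out. Levels near the low end of the array, as for Egr2, can understate a fold.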
